A study of Homo sapiens with 4 samples.

Results

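The E2F transcription factors and the retinoblastoma (RB) proteins are described here after PRMT3 knockdown in U251, a long-established cell line from a human glioblastoma (GBM). The members were taken by name from the table of gene counts: E2F1 to E2F8, RB1 and RBL1, 10 of 15575 genes, and all 10 passed the filter on low counts that left 13172 genes to test. Cells received lentiviral control shRNA (Ctrl) or PRMT3 shRNA (PRMT3-KD) and were profiled by RNA-seq at 72 h, with 2 libraries in each group. Both groups are U251 cells. The titles of the Ctrl libraries also carry the word pGreen, which those of the PRMT3-KD libraries do not, and the labels do not explain it. No other allele or agent is named in the labels, and the shRNA behind these libraries is not given in the sources used here. Nothing states that the libraries of a group came from separate cultures, so p-values measure only the spread between these libraries, which may be technical.

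E2F proteins bind DNA as pairs with a DP protein and set the timing of genes needed for S phase. Pocket proteins, which are RB1, RBL1 (p107) and RBL2 (p130), hold E2Fs in a repressed state until cyclin-dependent kinases phosphorylate them in G1, and E2F1, E2F2 and E2F3 then act mainly as activators. E2F4 and E2F5 work mainly with pocket proteins in resting and early G1 cells, E2F6 represses with polycomb proteins and without pocket proteins, and E2F7 and E2F8 repress without a DP partner late in the cycle. In glioblastoma, lesions of the CDKN2A, CDK4 and RB1 genes are known ways in which this brake is lost.

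Total counts per library lay between 24804250 and 29756313, and levels are given as CPM, which are counts scaled to the library total after TMM normalization. A gene was called when edgeR's quasi-likelihood test gave a Benjamini-Hochberg adjusted p under 0.05 over all genes tested and the change was over 1.5-fold. The Ctrl libraries were nearly alike, with a chi-square over degrees of freedom of 1.42 across genes, and the PRMT3-KD libraries were not, with 68.1. PRMT3, the targeted gene, had 535 counts in each Ctrl library and only 77 and 45 after knockdown, with a log2 fold change of -3.08 (SE 0.314, adjusted p = 0.0177, edgeR). All 10 glioblastoma line markers listed were in the table, with a summed level of 11158 to 11190 CPM in Ctrl, against 11707 to 12712 in PRMT3-KD. SPARC, a matrix protein, was the 1 marker called, with 2623 and 2613 CPM in Ctrl, against 4171 and 4738 in PRMT3-KD (log2 fold change 0.77, adjusted p = 0.0198, edgeR). Without SPARC the sum was 8566 and 8546 CPM in Ctrl, against 7536 and 7974 in PRMT3-KD, and the log2 fold changes of the other 9 markers ran from -2.03 for GFAP to 0.19 for S100B. Of 12 markers of immune, endothelial, neuronal, myelin and epithelial cells, 8 were in the table, 5 of these were under 1 CPM, and PECAM1, RBFOX3, EPCAM and AIF1 were not listed. Their summed level was 30.7 to 31.4 CPM in Ctrl, against 35.97 to 36.8 in PRMT3-KD, most of it CD68, and its part in the results below was not tested.

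Of the 10 members, 3 were called lower in PRMT3-KD cells (E2F2, E2F8 and E2F3) and 0 were called higher. Among all genes tested, 786 were called lower, which is 5.97%, and 655 were called higher, which is 4.97%. Both PRMT3-KD libraries lay below both Ctrl libraries for 7 members and above them for 1, where 33.8% and 33.3% of all genes did so. The median log2 fold change of the members was -0.53, beside 0.01 over all genes tested. E2F2 and E2F8 had the lowest ratios among the members, E2F5 was on the other side of 0, and E2F6, E2F7 and RB1 had intervals that include 0. With 2 libraries a group, the smallest two-sided p of an exact permutation test is 0.333, so single-gene p-values come from the model across all genes. Each library was also left out in turn. The log2 fold change then ran from -2.625 to -2.255 for E2F2, from -1.751 to -1.424 for E2F8 and from -0.6164 to -0.6019 for E2F3. It ran from -1.321 to -0.6623 for E2F1, from -0.7211 to -0.4222 for RBL1 and from 0.4884 to 0.8364 for E2F5. Counts of calls in such fits moved over the whole table, as described in the last section.

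**Figure D1:**
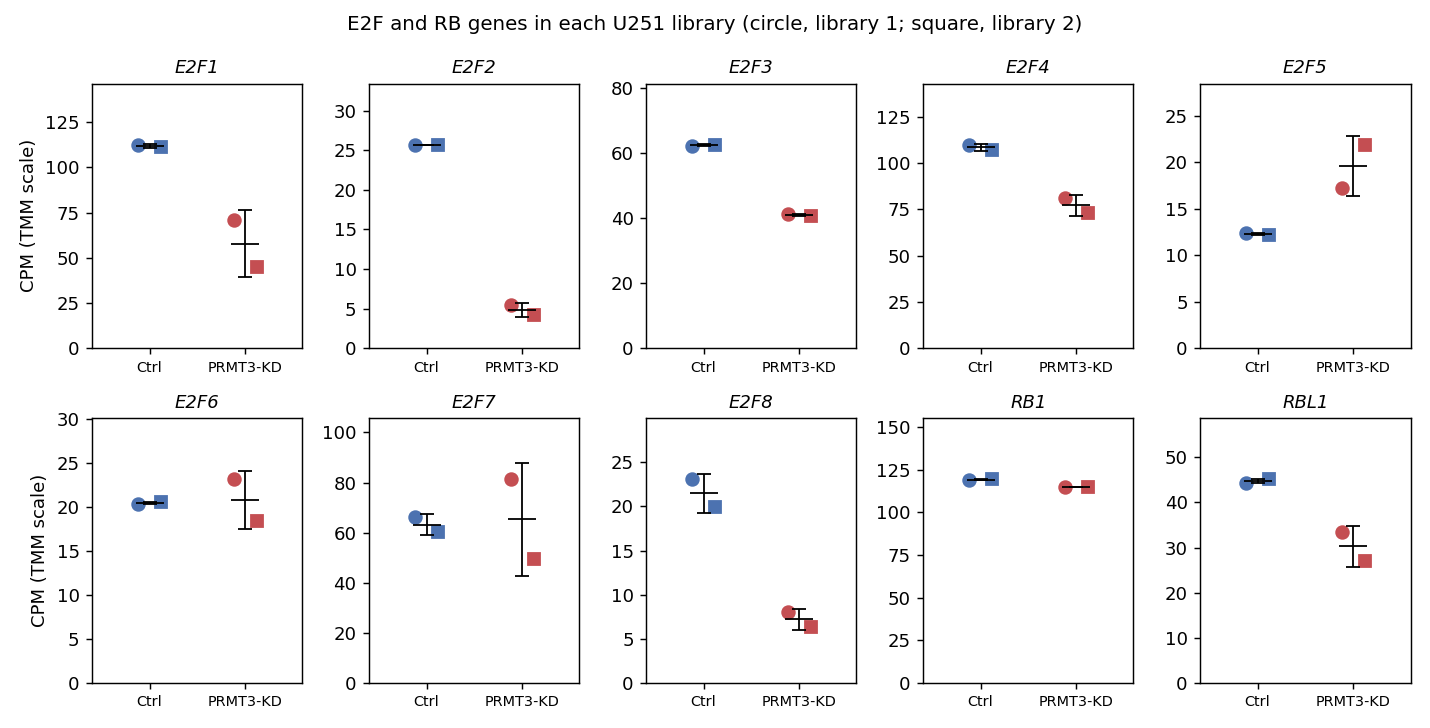
Level of each E2F and RB gene in CPM on the TMM scale (y axis, from 0, with its own range in each panel) in the 2 Ctrl and 2 PRMT3-KD libraries (x axis). Circles and squares are libraries 1 and 2, and the black mark and bars are the mean and SD. The PRMT3-KD points of E2F2 and E2F8 lie far under the Ctrl points, those of E2F5 lie above, and those of E2F7 lie on either side.

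The activator E2Fs, which drive S phase genes, were the class with the most members called. E2F2 (ENSG00000007968, GRCh37 chr1:23832930-23857725, minus strand, 7 exons in the canonical transcript) had 712 and 706 counts in Ctrl, against 137 and 118 in PRMT3-KD. In CPM these were 25.7 and 25.7 in Ctrl and 5.39 and 4.15 in PRMT3-KD, so both PRMT3-KD libraries were far below both Ctrl libraries. E2F2 fell from 25.7 ± 0.0214 to 4.77 ± 0.876 CPM (SD, n = 2 each), and its log2 fold change was -2.43 (SE 0.161, 95% interval -2.86 to -2.001, adjusted p = 0.0140, edgeR). This was 5.39-fold lower, the lowest ratio among the 10 members, and E2F2 was called in each of the 10 alternative settings that keep all 4 libraries.

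E2F3 (ENSG00000112242, GRCh37 chr6:20402110-20493945, plus strand, 7 exons), an activator that is also known for a shorter isoform from an internal start, had 62.3 and 62.6 CPM in Ctrl, against 41.3 and 40.7 in PRMT3-KD. Within each group the values were close together and the groups were well apart. E2F3 fell from 62.5 ± 0.219 to 41.0 ± 0.423 CPM (SD, n = 2 each), and its log2 fold change was -0.61 (SE 0.0734, adjusted p = 0.0198, edgeR). Its change of 1.52-fold was just past the 1.5-fold threshold, and it was not called when the test itself was made against 1.5-fold. The annotation holds 2 pseudogenes of E2F3, and counts per gene do not separate its isoforms.

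E2F1 (ENSG00000101412, GRCh37 chr20:32263283-32274191, minus strand, 7 exons), the activator first found as a partner of RB1, had 113 and 111 CPM in Ctrl, against 70.8 and 44.7 in PRMT3-KD. Both PRMT3-KD values were below both Ctrl values, and the gap between the PRMT3-KD libraries themselves was wide. Its mean was 111.8 ± 1.04 CPM in Ctrl, against 57.8 ± 18.5 in PRMT3-KD (SD, n = 2 each), with a log2 fold change of -0.95 (SE 0.233, 95% interval -1.57 to -0.33). The adjusted p was 0.0587 with edgeR, so E2F1 was not called, while DESeq2 (adjusted p = 0.000587), limma-voom with group weights (0.00518) and edgeR with a replicate block (0.0277) called it lower.

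E2F4 and E2F5, the E2Fs that work mainly with RBL1 and RBL2, differed in sign. E2F4 (ENSG00000205250, GRCh37 chr16:67226058-67232821, plus strand, 10 exons) had 109.9 and 107 CPM in Ctrl, against 81.2 and 73.3 in PRMT3-KD, with both PRMT3-KD libraries below both Ctrl libraries. Its log2 fold change was -0.49 (SE 0.0848, adjusted p = 0.0319, edgeR), a 1.41-fold difference that is under the 1.5-fold threshold, so it was not called. E2F5 (ENSG00000133740, 8 exons) had 12.4 and 12.2 CPM in Ctrl, against 17.3 and 21.9 in PRMT3-KD. It was the 1 member with both PRMT3-KD libraries above both Ctrl libraries.

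The log2 fold change of E2F5 was 0.67 (SE 0.151, 95% interval 0.27 to 1.08), and its adjusted p of 0.0501 (edgeR) missed the threshold narrowly. DESeq2, limma-voom with group weights, upper-quartile factors and library totals each called it higher, with adjusted p from 0.0173 to 0.04997. Exons of E2F5 share 991 bases with RBIS on the opposite strand, listed here as C8orf59, and whether reads were counted by strand is not given in the sources used here. C8orf59 had 22.8 and 21.2 CPM in Ctrl, against 22.4 and 22.1 in PRMT3-KD, a log2 fold change of 0.02 (adjusted p = 0.919, edgeR) and its groups overlapped.

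E2F6 (ENSG00000169016, GRCh37 chr2:11584501-11606303, minus strand, 7 exons), the polycomb-linked repressor, had 20.4 and 20.6 CPM in Ctrl, against 23.1 and 18.4 in PRMT3-KD. The PRMT3-KD libraries lay on either side of the Ctrl libraries. Its log2 fold change was 0.02 (95% interval -0.36 to 0.40, adjusted p = 0.926, edgeR), and 4 pseudogenes of E2F6 are annotated, with which reads may be shared.

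The atypical repressors E2F7 and E2F8, each with a pair of DNA-binding domains, differed from each other. E2F8 (ENSG00000129173, GRCh37 chr11:19245610-19263167, minus strand, 13 exons) had 639 and 548 counts in Ctrl, against 204 and 181 in PRMT3-KD, or 23.1 and 19.9 against 8.03 and 6.37 CPM. Both PRMT3-KD libraries were well under both Ctrl libraries. E2F8 fell from 21.5 ± 2.22 to 7.20 ± 1.17 CPM (SD, n = 2 each), and its log2 fold change was -1.58 (SE 0.168, 95% interval -2.03 to -1.13, adjusted p = 0.0182, edgeR), which was 2.99-fold lower.

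E2F7 (ENSG00000165891, GRCh37 chr12:77415028-77459349, minus strand, 13 exons) had 66.1 and 60.3 CPM in Ctrl, against 81.2 and 49.4 in PRMT3-KD. The first PRMT3-KD library was above both Ctrl libraries and the second was below both. Its log2 fold change was 0.05 (95% interval -0.63 to 0.72, adjusted p = 0.912, edgeR), an interval wide enough to hold a change of over 1.5-fold in either direction.

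Among the pocket proteins, RB1 (ENSG00000139687, GRCh37 chr13:48877880-49173572, plus strand, 27 exons), the tumour suppressor that gives the family its name, had 118.9 and 119 CPM in Ctrl, against 115 and 115 in PRMT3-KD. The values were slightly lower in PRMT3-KD, with no overlap, but the difference was small. Its log2 fold change was -0.05 (SE 0.0665, 95% interval -0.23 to 0.13, adjusted p = 0.608, edgeR), so its interval excludes a 1.5-fold change in either direction. RBL1 (ENSG00000080839, GRCh37 chr20:35624752-35724400, minus strand, 22 exons), which pairs mainly with E2F4, had 44.4 and 45.1 CPM in Ctrl, against 33.5 and 27.1 in PRMT3-KD.

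The PRMT3-KD values of RBL1 were both under the Ctrl values. Its log2 fold change was -0.56 (SE 0.129, 95% interval -0.91 to -0.22) with an adjusted p of 0.0519 (edgeR), and it was not called. RBL2, the third pocket protein and no member, had 98.3 and 96.5 CPM in Ctrl, against 88.9 and 100.5 in PRMT3-KD, a log2 fold change of -0.04 (adjusted p = 0.779, edgeR). Its groups overlapped, unlike those of RBL1, and exons of RBL2 share 609 bases with AKTIP on the opposite strand.

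**Figure D2:**
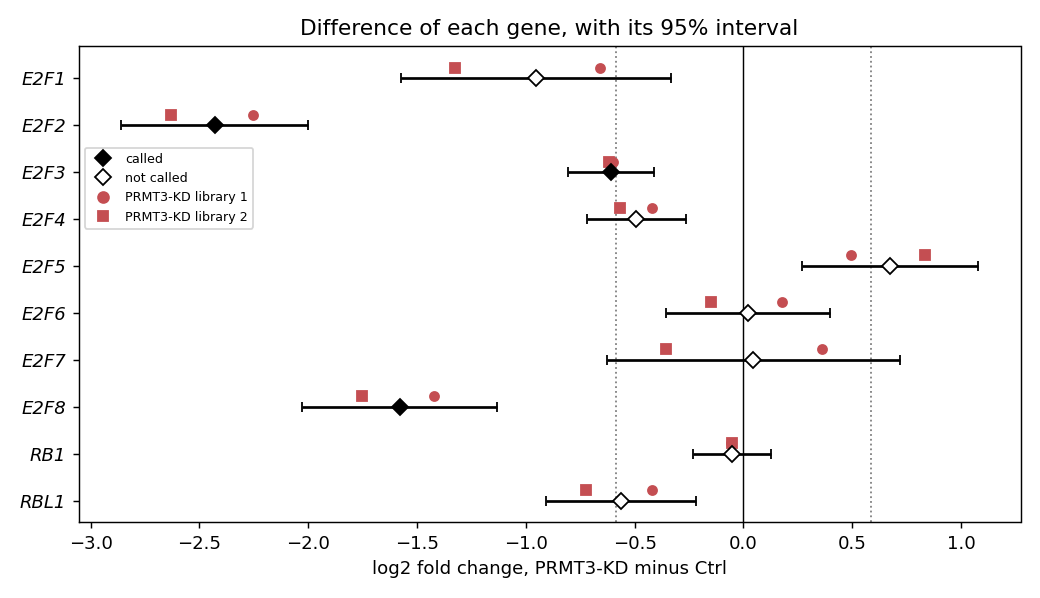
Log2 fold change of PRMT3-KD against Ctrl (x axis) for each gene (y axis), with its 95% interval from edgeR. Filled diamonds are called genes, red circles and squares are PRMT3-KD libraries 1 and 2 against the Ctrl mean, and dotted lines mark 1.5-fold. E2F2 at -2.43 and E2F8 at -1.58 have the lowest values, and the interval of E2F8 overlaps those of E2F2 and E2F1. The intervals of E2F6, E2F7 and RB1 cross 0.

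The PRMT3-KD libraries differed most in E2F7 and E2F1. Against the Ctrl mean, the log2 difference of E2F1 was -0.66 in the first PRMT3-KD library and -1.32 in the second, and that of E2F7 was 0.36 and -0.36. By contrast, E2F3 had -0.60 and -0.62 and RB1 had -0.05 and -0.05. The second library also had the lower value for E2F2 (-2.63 against -2.25), E2F8 (-1.75 against -1.42), E2F4 (-0.57 against -0.42) and RBL1 (-0.72 against -0.42), whereas E2F5 was higher in it (0.83 against 0.49).

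Levels of different genes were compared per kilobase of annotated exons. In Ctrl, E2F1 had the highest mean level of the E2Fs with 41.6 CPM per kb, and E2F4 followed with 30.2 CPM per kb. E2F3 had 12.04, E2F7 10.05, E2F8 5.20, E2F6 5.03, E2F2 4.70 and E2F5 2.05 CPM per kb. The library values of E2F8 and E2F6 overlapped in Ctrl, so their order is not resolved, while the other neighbours in this order did not overlap. RB1 had 18.5, RBL2 12.01 and RBL1 7.51 CPM per kb, and these did not overlap with each other.

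In PRMT3-KD, E2F1 and E2F4 had means of 21.5 and 21.5 CPM per kb and overlapped. E2F2 was the E2F with the lowest level, at 0.874 CPM per kb, and E2F5, with 3.27 CPM per kb, was above E2F8 with 1.74, with no overlap among these 3 genes. The order depends on the length used: per kilobase of the canonical transcript, a choice added after the data were seen, E2F4 came first in Ctrl with 51.4 CPM per kb and E2F1 second with 41.6. By that length E2F5, with 6.25 CPM per kb, was already above E2F8 with 5.80 and E2F2 with 4.94 in Ctrl.

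Summed over the 8 E2F genes, the level was 112 and 109 CPM per kb in Ctrl and 81.3 and 63.2 CPM per kb in PRMT3-KD. The activators E2F1, E2F2 and E2F3 made up 52.1% and 53.1% of this sum in Ctrl and 43.4% and 39.9% in PRMT3-KD, with no overlap. E2F4 and E2F5 together made up 29.1% and 29.1% in Ctrl and 31.3% and 38.0% in PRMT3-KD, and E2F6 made up 4.46% and 4.63% and then 7.001% and 7.18%. The atypical E2F7 and E2F8 made up 14.3% and 13.2% in Ctrl and 18.3% and 14.9% in PRMT3-KD. A larger share was not a higher level, since the sum itself was lower in PRMT3-KD. In CPM per kb, E2F4 and E2F5 together went from 32.6 and 31.8 to 25.5 and 24.0. E2F6 went from 5.01 and 5.06 to 5.69 and 4.54, and E2F7 and E2F8 together from 16.1 and 14.4 to 14.9 and 9.40. Summed over RB1, RBL1 and RBL2, the level was 38.1 and 38.0 CPM per kb in Ctrl and 34.4 and 34.8 in PRMT3-KD. These shares are per kilobase of annotated exons and rest on RNA, not on protein. They depend on the length used. Per kilobase of the canonical transcript, E2F4 and E2F5 had Ctrl means of 51.4 and 6.25 CPM per kb. E2F1, E2F2 and E2F3 then had 41.6, 4.94 and 12.4. The PRMT3-KD means were 36.6 and 9.97 for E2F4 and E2F5, against 21.5, 0.919 and 8.14 for the activators. By this length the activators were not the largest class in PRMT3-KD.

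The promoters of E2F1, E2F2, E2F3 and RBL1 share a feature that the choice of members did not use. Genes of this family are known targets of E2F proteins themselves, so promoter windows from RefSeq (GRCh38.p14, 250 bases before to 50 after each annotated start) were searched for E2F elements on both strands. Windows were found for 8 of the 10 members, and E2F5 and E2F8 had no entry. The 70 bases before the start are printed for the 4 members with both elements, 5′ to 3′ on the strand of the gene, with the elements TTTCGCG and TTGGCGC in capitals, to show how alike the arrangement is.
E2F1, chr20:33686386-33686455, minus strand: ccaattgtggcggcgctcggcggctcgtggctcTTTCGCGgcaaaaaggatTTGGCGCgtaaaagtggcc
E2F2, chr1:23531234-23531303, minus strand: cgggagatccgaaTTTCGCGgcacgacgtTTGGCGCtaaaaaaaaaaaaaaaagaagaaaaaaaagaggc
E2F3, chr6:20401809-20401878, plus strand: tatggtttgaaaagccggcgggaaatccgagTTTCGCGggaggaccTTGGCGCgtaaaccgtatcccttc
RBL1, chr20:37095998-37096067, minus strand: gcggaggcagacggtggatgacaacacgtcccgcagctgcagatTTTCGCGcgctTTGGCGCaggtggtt

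In each of these 4 promoters the upstream element TTTCGCG was followed by TTGGCGC on the same strand. The elements were 11 bases apart in E2F1, 9 in E2F2, 8 in E2F3 and 4 in RBL1. Both elements occur together in 45 of 35116 promoter windows, which is 0.128%, and singly TTTCGCG occurs in 1.32% and TTGGCGC in 3.04%. The pair was chosen after these promoters had been read, so its presence in them is a description. E2F7 holds 1 TTGGCGC, on the reverse strand. The windows of E2F4, E2F6, RB1 and the second start of E2F3 hold neither element, which says only that these letters are not in these windows.

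Of the members with both elements, E2F2 and E2F3 were called lower, and E2F1 and RBL1 had both PRMT3-KD libraries below both Ctrl libraries without being called. Among genes outside the members, 28 with both elements were tested, of which 3 (10.7%) were called lower and 0 higher. These 3 were MCM7 (log2 fold change -1.06), MCM6 (-0.97), both subunits of the replicative helicase, and UNG (-0.89), a uracil-DNA glycosylase, with adjusted p of 0.0409, 0.0154 and 0.0306 (edgeR). The median of the 28 was -0.27, and 22 were below 0. Of 10095 genes with any promoter entry, 6.01% were called lower, the median was 0.0058 and 4996 were below 0. Of 663 genes outside the members with the longer consensus (TTTCCCGC, TTTCGCGC, TTTGCCGC or TTTGGCGC), which overlaps both elements, 8.90% were called lower, and 3.32% of all windows hold it. The median of these 663 was -0.0676, and 379 were below 0. A difference between these sets was not tested.

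**Figure D3:**
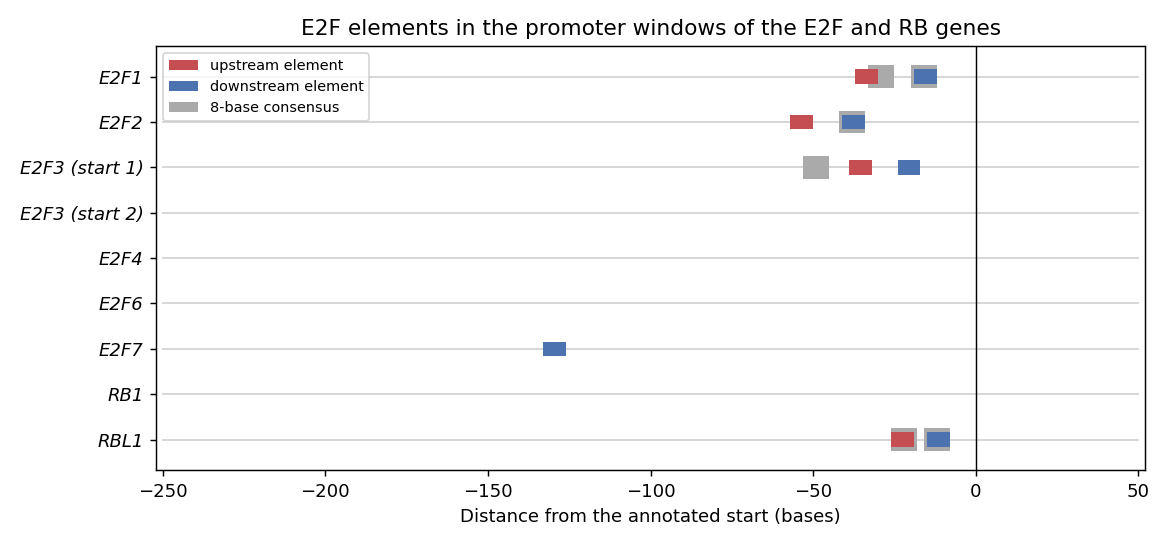
Position of E2F elements relative to the annotated start (x axis, bases) in the RefSeq promoter windows of the members (y axis). Red is the upstream element, blue the downstream element and grey the longer consensus. E2F1, E2F2, the first start of E2F3 and RBL1 hold red and blue side by side within the 70 bases before the start.

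A further sequence, CAGCTCA, was looked up because it had been noted earlier in 3′ UTRs of genes with lower counts in these libraries. Among the members, only E2F2 holds it in the 3′ UTR of its canonical transcript, as 1 copy at GRCh37 chr1:23835002-23835008 on the minus strand in a 3′ UTR of 3442 bases. The site is printed with its flanks and the 7 bases in capitals.
E2F2 site: ttgtcccttCAGCTCAgctgctctt
Over 12619 tested genes with an annotated 3′ UTR of 50 bases or more, 17.5% held the sequence, and 11.7% of these were called lower, against 4.83% of the genes without it. Since the sequence was picked for this pattern in the same libraries, these shares restate the choice, and the difference was not tested. E2F8 and E2F3, called lower too, have 0 copies, as do the other 7 members.

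Genes whose products act with the E2F and RB proteins were described from lists, by their counts and medians. Over all genes tested the median was 0.01, 5.97% were called lower, 4.97% were called higher, and 33.8% had both PRMT3-KD libraries below both Ctrl libraries, and the lists below can be read against these shares. The list of 50 known E2F targets of S phase entry had 18 genes called lower and 0 called higher, and 45 with both PRMT3-KD libraries below both Ctrl libraries. Its median log2 fold change was -0.74, with 49 of 50 genes below 0, and the exception was CDC25A (0.18, adjusted p = 0.684, edgeR). The genes with the largest called changes were FEN1, a flap endonuclease (-1.36, from 89.6 to 35.1 CPM), CDCA7, a chromatin factor (-1.32, from 41.8 to 16.8 CPM), MCM10, a replication initiation factor (-1.25, from 21.0 to 8.83 CPM), and UHRF1, which directs maintenance DNA methylation (-1.23, from 231 to 98.3 CPM). Their adjusted p lay between 0.0162 and 0.0423 (edgeR).

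The median of the S phase list was -0.52 in the first PRMT3-KD library and -1.06 in the second. The RB corepressor list went the other way, with -0.30 and -0.15. The S phase list had 10 genes called lower with library totals only, 37 with DESeq2 and 38 with limma-voom. It had 0 with glmTreat, which tests against 1.5-fold. Its counts of calls also moved when 1 library was left out, and such fits see the spread of only 1 group, so those counts are not given.

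**Figure D4:**
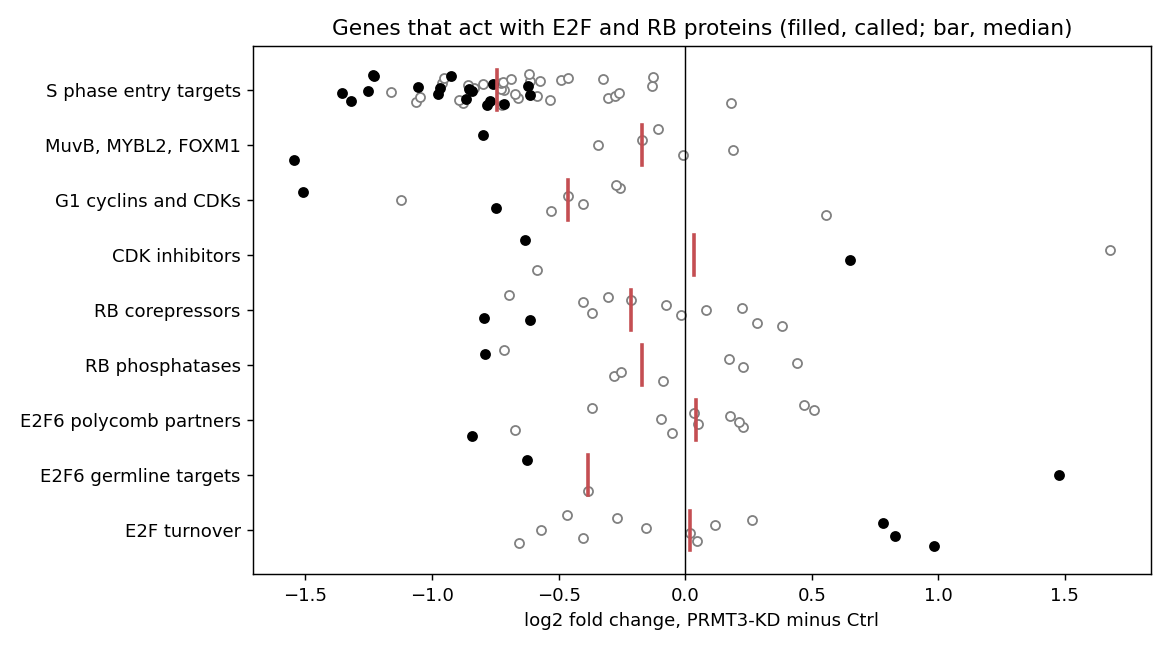
Log2 fold change of PRMT3-KD against Ctrl (x axis) for each tested gene of 9 lists (y axis). Filled points are called genes, open points are not called, and red bars are list medians. The S phase entry list has its median at -0.74 and 0 genes called higher, while the medians of the E2F turnover and CDK inhibitor lists lie near 0. The CDK inhibitor points themselves lie on either side of 0, from -0.63 to 1.68, and none is close to it.

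Neither DP partner in the table was called. TFDP1, the main DNA-binding partner, had 159 and 163 CPM in Ctrl, against 150.1 and 130.03 in PRMT3-KD, with a log2 fold change of -0.20 (adjusted p = 0.204, edgeR). TFDP2 had 30.03 and 29.0 CPM in Ctrl, against 41.2 and 46.3 in PRMT3-KD, a log2 fold change of 0.57 (adjusted p = 0.0324, edgeR) that is under 1.5-fold.

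In the list of the MuvB complex with MYBL2 and FOXM1, which joins RBL1 and RBL2 in resting cells and activates late cell cycle genes otherwise, 2 of 7 genes were called lower and 0 higher. FOXM1, a factor of G2 and mitotic genes, had 299.6 and 298 CPM in Ctrl, against 116 and 89.4 in PRMT3-KD, a log2 fold change of -1.54 (adjusted p = 0.0160, edgeR). MYBL2, which joins MuvB in S phase and is itself a known E2F target, had 148.7 and 160.001 CPM in Ctrl, against 97.1 and 80.4 in PRMT3-KD, with -0.80 (adjusted p = 0.0250, edgeR). The 5 MuvB core subunits had values from -0.34 for LIN54 to 0.19 for LIN52.

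Of 9 tested G1 cyclins and kinases that phosphorylate the pocket proteins, 2 were called lower, CCND3 (cyclin D3, -0.75, adjusted p = 0.0223, edgeR) and CDK3 (-1.51, under 5 CPM on average), and 0 higher. CCND1 (cyclin D1) had 522 and 530.03 CPM in Ctrl, against 491 and 238 in PRMT3-KD, so the PRMT3-KD libraries differed widely, and its log2 fold change was -0.53 (adjusted p = 0.340, edgeR). CDK4, CDK6 and CDK2 had log2 fold changes of -0.26, -0.27 and -0.46, and none was called. CCNC, cyclin C, had 0.55, the 1 gene of this list above 0.

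Among the CDK inhibitors, which keep the pocket proteins active, CDKN1B (p27) rose from 44.2 and 42.2 CPM to 65.0 and 70.7 CPM, a log2 fold change of 0.65 (adjusted p = 0.0212, edgeR). CDKN2D (p19) fell, with -0.63 (adjusted p = 0.0381, edgeR). CDKN1A (p21), with 29.4 and 28.8 CPM in Ctrl, against 19.01 and 19.8 in PRMT3-KD, had a log2 fold change of -0.58 (adjusted p = 0.0263, edgeR) that lies just under the 1.5-fold threshold. CDKN1C (p57), at 0.397 and 0.254 CPM in Ctrl, against 0.866 and 1.23 in PRMT3-KD, had the largest difference of the 4 tested, a log2 fold change of 1.68, and was not called (adjusted p = 0.0580, edgeR). CDKN2A, the inhibitor that is often deleted in glioblastoma, had 2 and 0 counts in Ctrl, against 0 and 2 in PRMT3-KD, and was not tested.

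Of 13 RB corepressors and chromatin partners, 2 were called lower, EHMT2, a histone methyltransferase (-0.80), and DNMT1, the maintenance DNA methyltransferase (-0.61), and 0 higher, with a list median of -0.21. Of 8 RB phosphatase genes, PPP2R2A was called lower (-0.79) and the median was -0.17. Of 12 polycomb partners of E2F6, CBX3 was called lower (-0.84) and the median was 0.04. Of 3 tested genes listed as germline genes under E2F6, TDRKH was called higher (1.48), TUBB3 lower (-0.62), and STAG3 (-0.38) was not called. TUBB3 is a neuronal tubulin, so its place on this list is doubtful.

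Of 13 genes for turnover and modification of E2F proteins, 3 were called higher and 0 lower: BTRC, a ubiquitin ligase subunit (0.98), KAT2B, an acetyltransferase (0.83), and SETD7, a lysine methyltransferase (0.78). CCNF, the ligase subunit known to target activator E2Fs and atypical E2Fs, had -0.66 (adjusted p = 0.0749, edgeR), and SKP2 had -0.27 (adjusted p = 0.211, edgeR).

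The list of E2F targets of cell death, with 10 tested genes, had a median of 0.16, on the other side of 0 from the S phase list. Of these genes 0 were called higher, 4 were below 0, and both PRMT3-KD libraries lay above both Ctrl libraries for 4 and below them for 4.

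Genes whose pattern over the 4 libraries was most like that of a called member were found by distance among 9449 genes that averaged 10 CPM or more. The nearest to E2F2 were LMNB2, a nuclear lamin (distance 0.225, log2 difference against Ctrl -1.96 and -2.61 in the PRMT3-KD libraries), HMGB2, a high mobility group protein (0.352), and ADAM15, a metalloproteinase (0.595). These distances were wider than the 0.0562 to 0.129 of C4orf46, SMARCAL1 and BCL7B for E2F8, and than the 0.0260 to 0.0294 of DDX39B, PPP6R3 and EARS2 for E2F3. For RB1, the nearest were SLC25A3, PQLC1 and FTH1, at 0.0107 to 0.0137. These distances rest on 4 libraries and describe likeness only.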

How the data were processed

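RNA-seq reads of 2 Ctrl and 2 PRMT3-KD libraries of U251 cells were, per the study's methods, aligned to hg19 with TopHat and counted with Cufflinks by the authors. Versions, annotation and strand setting are not given in the sources used here. The deposited values are whole-number counts per gene without normalization, in 15576 entries, of which 1 duplicate was removed. Every column of counts was matched to a library by its label. In R 4.3.3, edgeR 4.0.16 (filterByExpr with a minimum count of 10 and total of 15, TMM, glmQLFit, glmQLFTest) was run on all genes, with Benjamini-Hochberg adjustment over 13172. Scripts were run on simulated counts with equal and with unequal spread between groups. Limits on missed and false calls were set only for edgeR with equal spread, which is unlike these libraries. Alternatives were DESeq2 1.42.0, limma 3.58.1 (voom), other factors, filters, thresholds, a replicate block and leaving out each library. Lengths, coordinates and 3′ UTRs came from GENCODE 44 on GRCh37, promoters from RefSeq on GRCh38.p14, read with Python 3.11.15. Named genes were all members, PRMT3, a fixed set of partners and, in lists of over 3 genes, the 4 called genes with the largest changes and at least 5 CPM. CDK3, CDC25A, CCNC, LIN54, LIN52, C8orf59, AKTIP, CDKN1C, MCM7, MCM6, UNG and the marker genes were named after their values were seen. A gene of the cell death list is not reported here, nor is that list's count of lower calls. Members, lists and sequences were chosen with earlier results of these data known. Total counts limit the precision of low genes, and counting error is part of the test.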

Additional observations from a re-analysis of the deposited data

How the results depend on the processing

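The calls of E2F2, E2F3 and E2F8 held with DESeq2, limma-voom, 3 other scalings, both filters and the replicate block, and with glmTreat against 1.5-fold E2F2 was the 1 member called, PRMT3 had an adjusted p of 0.0610 (edgeR, log2 fold change -3.08), 43 genes were lower and 22 higher, and 0 S phase targets were lower. The adjusted p alone gave 1105 genes higher. With DESeq2, limma-voom, upper-quartile factors and library totals, 1 member (E2F5) was called higher. S phase targets called lower numbered 37 with DESeq2, 38 with limma-voom, 10 with library totals only and 34 with the replicate block. Library totals put 40.9% of calls on the higher side against 45.5%. The correlation of replicate differences was 0.0222 across genes. The Ctrl difference is close to counting noise (chi-square over degrees of freedom 1.42), so this value cannot decide whether replicate numbers pair the libraries. The block called 801 genes lower and 663 higher. Leaving out 1 library gave 0 to 1636 genes lower, 0 to 1432 higher, 0 to 5 members lower, 0 to 1 higher, and 0 to 44 S phase targets lower. The 0 counts came without either Ctrl library, when 1842 and 1868 genes had an unadjusted p under 0.05 and the lone library is assumed to vary like the pair. E2F6 turned to -0.00355 with library totals and E2F7 to -0.00548 with limma-voom, and leaving out libraries put E2F6 from -0.15 to 0.17 and E2F7 from -0.35 to 0.36, with -0.02 without the second Ctrl library. The log2 fold change of PRMT3 ran from -3.61 to -2.68 over these fits and missed the threshold without either Ctrl library. The main fit estimates 1 spread per gene for both groups together, so its SEs, intervals and calls rest on pooling unlike groups. The cause of the wide spread between the PRMT3-KD libraries was not tested. Over the results recomputed, 427 values kept their call or stayed within 1.5 times, 91 counts moved, 12 gained and 11 lost a call, and 5 changed sign. The 427 include counts of 0 in short lists that stayed at 0, so this total is no measure of stability.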
